A study of Mus musculus with 2 samples.

Results

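Fibroblasts with RNA of Gdf10 together with Kcnj8 or Abcc9 numbered 2060 of the 21983 cells that passed the quality limits in 2 single-cell libraries of mouse vein grafts. There were 545 of 10458 in the library of conventional grafts and 1515 of 11525 in the library of No-Touch grafts. A cell was counted when Col1a1, Col1a2, Col3a1 and Dcn together made up at least 1.5% of its UMIs (the molecules counted in it) and when it had 0 UMIs of Cdh5, Sox10 and Notch3, which mark endothelial, Schwann and mural cells. It also needed at least 2 UMIs of Gdf10 and at least 1 UMI of Kcnj8 or Abcc9. Cells with much RNA of Pi16, Saa3, C1qtnf3 or of Cxcl9 and Cxcl10 were left out, the limits being 10, 60, 5 and 10 per 10000 UMIs. The cells are called members here. Since these counts chose them, the levels of the genes named in the rule are given as a description, and so is every difference between members and other fibroblasts.

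Each group was 1 library, from C57BL6/J mice of 10 to 12 weeks. The labels name conventional and No-Touch vein grafts, the second being a way of taking a vein together with the tissue around it. Papain came first in the digestion, followed by a mix of papain, collagenase I and dispase II; all digested cells of a sample were pooled, and live nucleated cells without surface CD45 were sorted for 10x Genomics 3' capture with kit version 2 or 3, which the labels do not settle for each library. The number of animals and grafts per library and the time after grafting are not given in the sources used here. With 1 library per group no difference between libraries has a replicate check, so no p-value is given, and what is compared is this pair of libraries, not graft types.

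Gdf10 encodes a secreted ligand of the transforming growth factor beta family, also called BMP3b. Kcnj8 encodes Kir6.1, the pore of an ATP-sensitive potassium channel, and Abcc9 encodes SUR2, its regulatory subunit. The pair makes the vascular form of the channel, which couples the energy state of a cell to its membrane potential and is best known from pericytes and smooth muscle cells. Fibroblasts of the outer coat of a vessel make its collagen and elastic matrix and release chemokines, complement and growth factors.

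Conventional members had a median of 19227 UMIs and No-Touch members of 28663, beside medians of 16779 and 28472 over all cells that passed, and of 20219 and 31473 over all fibroblast-gated cells. Other groups of fibroblasts passed the same limits and exclusions. Fibroblasts with at least 2 UMIs of Gdf10 but 0 of Kcnj8 and Abcc9 numbered 170 and 189, with median depths of 18029 and 33300 UMIs. Gdf10-low fibroblasts, with 0 or 1 UMI of Gdf10, numbered 1375 and 1404, with medians of 18683 and 32518. In the No-Touch library the cells without channel UMIs were thus deeper than the members. The libraries shared 22 barcodes, and 0 barcodes were members in both. In members the RNA of Xist stood at 111 CPM (UMIs per 1000000 UMIs summed over the cells) in the conventional library and 0.061 CPM in the No-Touch one, and Ddx3y, a Y-linked gene, at 86.8 and 121 CPM. Pth, the gene of parathyroid hormone, stood at 184 and 13.3 CPM. Xist and Pth therefore went with the library, whereas Ddx3y was present in both libraries. The part of sex and of Pth in the differences between libraries was not tested.

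Members made up 13.3% (95% Clopper-Pearson interval 12.3 to 14.4) of fibroblast-gated cells in the conventional library and 22.5% (21.5 to 23.5) in the No-Touch library. All intervals cover counting error only. The rule asks for whole UMIs, so a deeper cell passes it more easily. With every cell thinned to 10000 UMIs the shares were 7.66% (6.89 to 8.49) and 11.8% (11.1 to 12.5). This left out as too shallow 23.7% of all conventional and 10.4% of all No-Touch cells that passed the quality limits. Among fibroblast-gated cells it left out 8.34% and 4.94%. Thinning also lets more cells pass the limits of 0 UMIs. With only the Gdf10 and channel requirements read from the thinned counts the shares were 8.20% (7.34 to 9.12) and 13.0% (12.2 to 13.8). At 5000 UMIs they were 3.02% and 6.95%. The No-Touch share was the higher one each time, and the plot of shares by depth gives both libraries side by side.

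**Figure D1:**
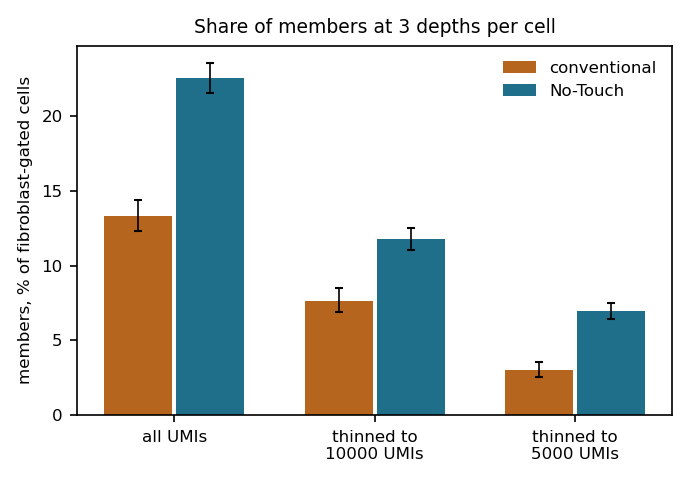
Members as a percentage of fibroblast-gated cells (vertical axis) in each library at all UMIs and after thinning to 10000 and 5000 UMIs per cell. Bars are shares, lines are 95% Clopper-Pearson intervals; the No-Touch bar is the taller one at each depth.

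The exclusions shaped this number. Before them 991 conventional and 3110 No-Touch fibroblasts had both Gdf10 and channel UMIs. The Pi16 limit took out 26.3% and 27.9% of these, the Saa3 limit 13.6% and 4.28%, the C1qtnf3 limit 1.31% and 6.75%, and the limit on Cxcl9 and Cxcl10 10.2% and 21.6%. What was left was 55.0% and 48.7%. The limits on the interferon-induced chemokines, on the acute-phase gene Saa3 and on C1qtnf3 thus removed unequal parts of the 2 libraries.

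The channel genes were more frequent where Gdf10 was present. At 10000 UMIs per cell, 67.5% (63.2 to 71.6) of the Gdf10 fibroblasts in the conventional library and 79.3% (76.9 to 81.7) in the other had a UMI of Kcnj8 or Abcc9. In Gdf10-low fibroblasts the shares were 37.0% (34.7 to 39.4) and 44.1% (42.0 to 46.1). At all UMIs the shares were 76.2% and 88.9% in Gdf10 fibroblasts, and 45.1% and 56.5% in Gdf10-low ones. Endothelial cells (Cdh5 at least 2 UMIs, Notch3 0) gave 17.1% (14.6 to 19.8) and 24.6% (21.5 to 27.8) at the same thinned depth. Their median depths before thinning were 13536 and 19077.5 UMIs. How much of that Kcnj8 and Abcc9 RNA was their own was not tested. Pericytes here are cells with at least 2 UMIs each of Notch3 and Rgs5 and 0 of Cdh5. Smooth muscle markers summed to 6796 and 5098 CPM in them, so smooth muscle cells may be among them. The cells called pericytes gave 74.7% (70.8 to 78.3) and 78.0% (73.8 to 81.9). At 10000 UMIs Gdf10 fibroblasts thus lay below pericytes in the conventional library and within counting error of them in the No-Touch library. Both kinds lay above the level in endothelial cells. At least 2 UMIs of Gdf10 at that depth were in 2.91% and 7.64% of endothelial cells and in 4.99% and 7.01% of pericytes. Pericytes and endothelial cells were chosen at full depth, but the fibroblasts from the thinned counts. At 5000 UMIs a channel UMI was in 47.8% and 72.0% of Gdf10 fibroblasts and in 67.4% and 67.2% of pericytes.

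Gdf10 (ENSMUSG00000021943, mm10 chr14:33923587-33937983, plus strand) had a lowest, median and highest count per member of 2, 4 and 40 UMIs in the conventional library and of 2, 7 and 73 in the No-Touch library. Its level over all members was 281 and 313 CPM. In Gdf10 fibroblasts without channel UMIs it was 225 and 168 CPM, and in Gdf10-low fibroblasts, where the rule caps it, 10.9 and 9.87 CPM.

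Abcc9 (ENSMUSG00000030249, chr6:142587862-142702315, minus strand) carried most of the channel signal. It was detected in 93.6% (91.2 to 95.5) of the members in the conventional library and 97.0% (96.0 to 97.8) in the other, with a median of 3 and 6 UMIs and a highest count of 37 and 40. Its level was 169 and 228 CPM in members, 58.2 and 64.4 CPM in Gdf10-low fibroblasts, and 196 and 224 CPM in pericytes. Members were chosen with these genes and pericytes were not, so the levels are set side by side only.

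Kcnj8 (ENSMUSG00000030247, chr6:142564837-142571614, minus strand) lies 16247 bases from Abcc9 on the same strand, in the same annotation. It was detected in 42.4% (38.2 to 46.7) of the members in the conventional library and 61.6% (59.1 to 64.0) in the other, with a median of 0 and 1 UMI and a highest count of 17 and 47. Its level was 39.1 and 74.5 CPM in members, 11.7 and 17.4 CPM in Gdf10-low fibroblasts, and 169 and 166 CPM in pericytes. Of the UMIs of both genes, Kcnj8 made up 18.8% (17.2 to 20.4) and 24.7% (24.0 to 25.4) in members, against 46.4% (44.9 to 47.8) and 42.6% (41.2 to 44.0) in pericytes and 47.3% (43.3 to 51.3) and 32.0% (29.4 to 34.6) in endothelial cells. Gdf10-low fibroblasts were nearer to members, at 16.7% (15.1 to 18.4) and 21.3% (20.02 to 22.6). The fibroblasts held less Kcnj8 per Abcc9 than pericytes of the same library did. Both genes were found in 196 conventional and 888 No-Touch members, Abcc9 alone in 314 and 582, and Kcnj8 alone in 35 and 45. Kcnj11 and Abcc8, which encode the channel of pancreatic beta cells, had 0 CPM in members of both libraries.

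To read these genes in counts that did not choose the cells, each cell's UMIs were split at random into equal parts. The rule was applied to the first part, and levels were read in the second. It then found 335 and 1223 members. Gdf10 in the second part was 321 CPM (95% Garwood interval 303 to 340) and 372 (363 to 380), against 39.3 and 34.2 in Gdf10-low fibroblasts. Abcc9 was 190 (176 to 204) and 256 (249 to 263) in members, 56.6 (46.3 to 68.5) and 37.9 (32.2 to 44.4) in Gdf10 fibroblasts without channel UMIs, and 58.5 and 78.9 in Gdf10-low ones. Kcnj8 was 46.1 (39.5 to 53.4) and 87.6 (83.6 to 91.8), 17.8 (12.2 to 24.98) and 7.29 (4.92 to 10.4), and 13.2 and 21.7 in the same order. The levels of all 3 genes in members stood above those of the fibroblasts that failed the rule on the first part, with the exception of Gdf10 in conventional cells without channel UMIs, which was 319 CPM (293 to 345). A second split gave values inside these intervals for all 3 genes in members.

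Mfap4 and Comp, the markers of the label that the rule did not use, differed in how they went with the members. Mfap4 (chr11:61485431-61488900, plus strand) encodes a microfibril-associated glycoprotein of elastic fibres. It was detected in 81.7% and 90.2% of members. Its level was 641 CPM in conventional and 542 CPM in No-Touch members, 402 and 135 CPM in Gdf10 fibroblasts without channel UMIs, and 476 and 220 CPM in Gdf10-low fibroblasts. Members were the highest of the 3 populations in both libraries. Comp (chr8:70373558-70382066, plus strand), cartilage oligomeric matrix protein, was detected in 73.9% and 78.5% of members. Its level in members was 382 and 414 CPM, against 298 and 125 CPM in Gdf10-low fibroblasts. Against Gdf10 fibroblasts without channel UMIs, at 537 and 295 CPM, it was lower in conventional and higher in No-Touch members. Comp RNA was uneven between cells: the 10 highest of 170 conventional and 189 No-Touch cells without channel UMIs held 56.4% and 68.9% of it. The 10 highest of 545 and 1515 members held 23.9% and 6.84%. Such a share falls as a population grows, so it does not compare the evenness of these populations. Conventional fibroblasts with a channel UMI held Comp at 286, 273 and 242 CPM with 0, 1 and 2 UMIs of Gdf10, and at 742 CPM with 10 or more. The difference between the libraries was not tested.

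**Figure D2:**
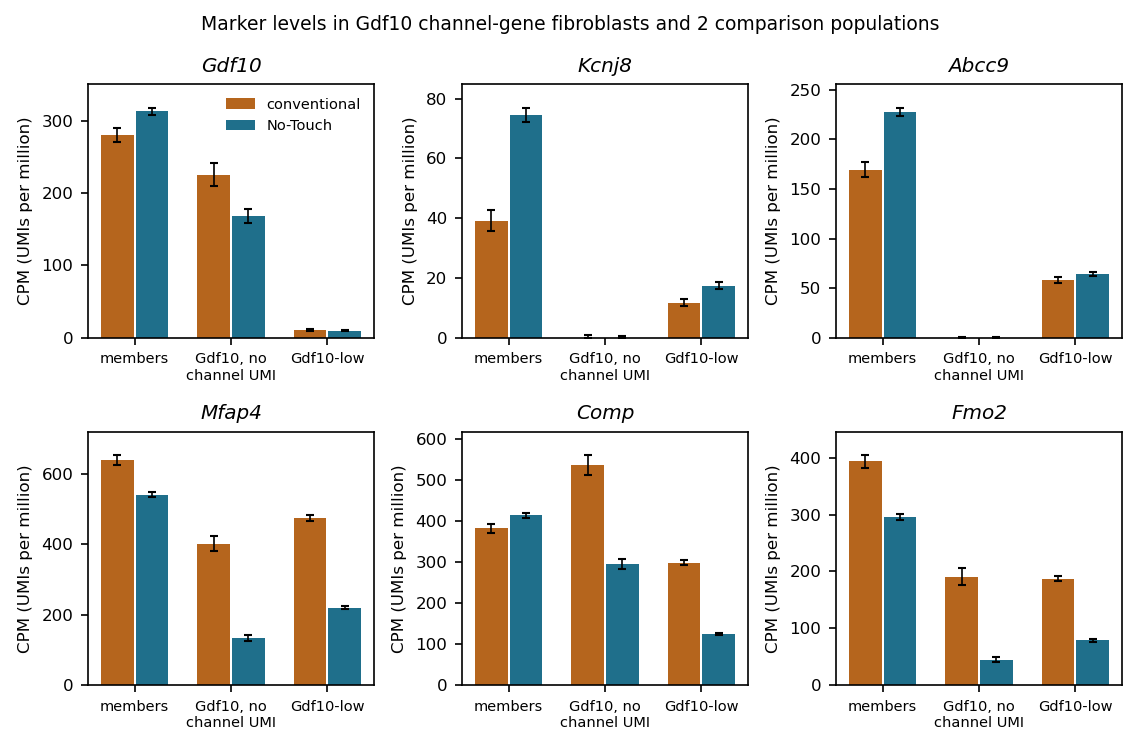
Level (CPM, vertical axes, each from 0) of 6 genes in members, in Gdf10 fibroblasts without channel UMIs and in Gdf10-low fibroblasts of each library; lines are 95% Garwood intervals. Mfap4 and Fmo2 are highest in members in both libraries, whereas Comp is highest in the conventional cells without channel UMIs.

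What distinguished members from Gdf10 fibroblasts without channel UMIs included Fmo2, Mfap4, Ccl19 and Sfrp4. Leaving out the genes of the rule, 21 of 2705 genes of at least 50 CPM (0.776%) were at least 1.5-fold higher in members in both libraries, and 17 (0.628%) were at least 1.5-fold lower. When the rule was applied to cells thinned to 10000 UMIs, 7 of the 21 and 12 of the 17 remained. Fmo2, a flavin monooxygenase of drug and sulphur metabolism, was first by the mean of the log2 ratios. It stood at 394 and 296 CPM in members and at 190 and 44.5 CPM in cells without channel UMIs, log2 ratios of CPM + 1 of 1.05 and 2.70. Ccl19, a chemokine that draws dendritic cells and naive T cells, was 848 and 505 CPM against 414 and 205. Sfrp4, a secreted inhibitor of Wnt ligands, was 932 and 1480 CPM against 453 and 667. Eln, tropoelastin, was 438 and 628 CPM against 290 and 296. Eln was held unevenly: 1 conventional member had 1015 of its 5179 UMIs, and the 10 highest comparison cells 55.4% and 68.4%. Without the highest cell of each population it was 353 and 606 CPM against 262 and 186, which ends the 1.5-fold difference in the conventional library, and both libraries kept its direction in 13 of 14 alternatives. The same direction in both libraries was a condition for naming these genes. The ratio of Fmo2 was the larger one in the No-Touch library.

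C7, a part of the membrane attack complex, was 46.1 and 25.7 CPM in members against 16.8 and 1.58, and C2, a protease of the classical complement pathway, 217.5 and 220.5 CPM against 142 and 122. Apoe (2353 and 1451 CPM against 1648 and 420), Fbln1, Gpnmb, Steap4, Rrad and Cd200 were also among the 12 highest. Cd200 was 122 and 133 CPM against 110 and 52.1, so it was nearly level in the conventional library. In the elastic-fibre list 2 of 21 genes measured (at least 10 CPM), Mfap4 and Eln, were at least 1.5-fold higher in both libraries and 0 lower. The median log2 ratio of that list was -0.17, beside -0.04 over all 7994 genes at that level, of which 59 (0.738%) were higher and 60 (0.751%) lower. The list as a whole thus did not go with its 2 members. Fbn1, the main protein of microfibrils, stood at 429 and 587 CPM in members and at 533 and 925 CPM in cells without channel UMIs.

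Of 18 matricellular genes measured, 5 were lower in members, 0 higher and 13 neither, with a median of -0.38. Over all genes measured 0.751% were lower and 0.738% higher. Thbs1, thrombospondin 1, was 232 and 108 CPM in members against 415 and 328, Tnc, tenascin C, 81.0 and 93.8 CPM against 134 and 217, and Tnn and Thbs2 were also lower. Spp1, osteopontin, was 252 and 87.5 CPM against 589 and 325, but its 10 highest cells held 87.7% and 84.2% of its UMIs in members and 93.4% and 92.9% in the comparison cells. Its mean log2 ratio of -1.55 was -0.56 without cells with a pericyte UMI (of Rgs5, Higd1b, Cox4i2 or Myh11) and -3.16 with at least 4 UMIs of Gdf10. Tagln, a contractile gene, was 40.5 and 68.9 CPM against 171 and 111, and 10 cells held 88.0% and 78.1% of it in the cells without channel UMIs. Serpine2, an inhibitor of thrombin and plasminogen activators, was 65.3 and 58.9 CPM against 153 and 214. Of 15 non-fibrillar collagens 3 were lower (Col8a1, Col12a1, Col18a1) and 0 higher, with a median of -0.46. Fn1, fibronectin, was 1834 and 2227 CPM against 2505 and 4038. Of 19 matrix proteases and their inhibitors 0 were lower and 0 higher, with a median of -0.03, and of 3 fibrillar collagens outside the rule 0 were lower and 0 higher, with a median of -0.40. Summed smooth muscle markers were 133 and 212 CPM in members and 403 and 230 CPM in the cells without channel UMIs. Cells with at least 1% of their UMIs from Pth, Spp1 or Acta2 and Tagln numbered 3 and 7 among members and 5 and 2 among the others, and without them 17 genes were higher and 14 lower.

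Mfap4 and Fmo2 differed along the amount of channel RNA. Among Gdf10 fibroblasts grouped by their UMIs of Kcnj8 and Abcc9 (0, 1, 2, 3 to 4, 5 to 9, and 10 or more), Mfap4 was 402, 549, 610, 649, 652 and 816 CPM in the conventional library. In the No-Touch library it was 135, 196, 306.5, 473.5, 627 and 641 CPM. Fmo2 went from 190 to 598 and from 44.5 to 459 CPM between the first and the last class, and Sfrp4 from 453 to 1790 and from 667 to 1748. The level was highest in the last class for each of these. Eln was uneven, at 290, 180, 381, 570, 377 and 885 CPM in the conventional library and 296, 209, 415, 564, 593 and 823 in the No-Touch one. Timp1, an inhibitor of matrix metalloproteases, went from 858 to 287 and from 709 to 409 CPM, and Col5a3 from 232 to 85.2 and from 475 to 164. Rgs5, the main pericyte gene here, showed no such order, at 21.9 and 23.5 CPM in the first and last conventional class and 15.5 and 11.8 in the No-Touch ones. The classes held 59 to 170 conventional and 110 to 613 No-Touch cells, with median depths of 17385 to 22911 and 25450 to 33300 UMIs. The No-Touch class without channel UMIs was the deepest of its library. These genes were picked for the display after their values were seen.

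**Figure D3:**
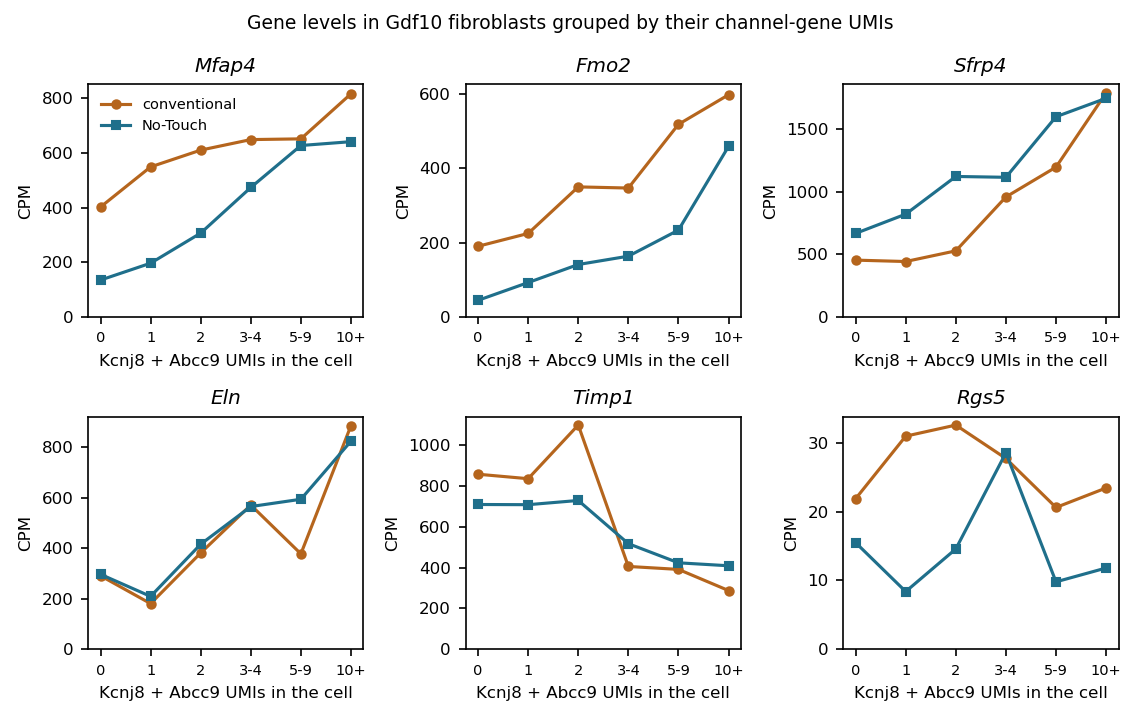
CPM of 6 genes (vertical axes) in Gdf10 fibroblasts grouped by their summed Kcnj8 and Abcc9 UMIs (horizontal axes) in each library. Mfap4, Fmo2, Sfrp4 and Eln are highest in the class of 10 or more, Timp1 is lowest there, and Rgs5 does not pass 32.6 CPM in any class.

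The channel cut lies at 1 UMI. Just inside it, with 1 UMI, Fmo2 was 225 and 92.4 CPM, Mfap4 549 and 196, Sfrp4 442 and 821, Eln 180 and 209, Comp 479 and 169, and Timp1 836 and 708. Just outside, with 0, Fmo2 was 190 and 44.5 CPM, Mfap4 402 and 135, Sfrp4 453 and 667, Eln 290 and 296, Comp 537 and 295, and Timp1 858 and 709. The Gdf10 cut lies at 2 UMIs. Among fibroblasts with a channel UMI, those with 2 UMIs of Gdf10 had Cxcl12 at 768 and 600 CPM and Mfap4 at 534 and 342, and those with 1 UMI had 636 and 573 and 619 and 312. Fmo2 and Mfap4 were higher just inside the channel cut in both libraries, Eln and Comp were lower there in both, and Sfrp4 was lower there in the conventional library. Cxcl12 was higher just inside the Gdf10 cut in both, while Mfap4 in the conventional library was higher just outside the Gdf10 cut than inside it.

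Members with RNA of both channel genes were set beside members with Abcc9 alone. At least 1.5-fold in both libraries, 11 of 2662 genes (0.413%) were higher and 5 (0.188%) lower with both. Kcne4, an accessory subunit of voltage-gated potassium channels, was 84.3 and 114 CPM against 55.1 and 67.9. Eln was 747 and 741 CPM against 247 and 481, Timp3 363 and 311 against 212 and 180, and Cd200, an immune inhibitory ligand, 161 and 169 against 94.7 and 80.9. Fmo2, Mfap4, Cst3, Foxp2, Slc6a6, Clec11a and Tgfb3 were the other higher ones, and Ptn, Ccl11, Ly6c1, Pla1a and H2-Q6 the lower ones. Median depths were 20200 and 28006 UMIs with both genes and 19134 and 29198 with Abcc9 alone.

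Against Gdf10-low fibroblasts, members differed at least 2-fold in both libraries at few genes. There were 4 higher (0.145%) and 7 lower (0.254%) of 2761, or 6 higher and 4 lower with TMM or median-of-ratios scaling. Among cells of 10000 to 40000 UMIs 1 of the 4 and 3 of the 7 remained. The higher ones were Fmo2, Cxcl12, Rgs16 and Inmt. Cxcl12, a chemokine that holds CXCR4-bearing cells in niches, was 1072 and 974 CPM in members and 515 and 449 CPM in Gdf10-low cells. Among fibroblasts with a channel UMI it went up with each class of Gdf10 UMIs, from 523 to 1472 CPM in the conventional and from 439 to 1196 CPM in the No-Touch library. Rgs16, a regulator of G-protein signalling, was 423 and 300 CPM against 209 and 133. Inmt, a methyltransferase of tryptamine and other amines, was 101 and 51.2 CPM against 22.8 and 10.0. The lower ones were Ptn, Sbsn, Timp1, Thbs4, Cd55, Inhba and Crabp2. Timp1 was 600 and 483 CPM against 1298 and 993, and Ptn, pleiotrophin, 40.8 and 81.5 CPM against 118 and 177. Thbs4 was 126 and 90.4 CPM against 292 and 185, with 10 cells holding 77.4% and 38.1% of it in members. Inmt, Inhba and Crabp2 lay outside the rule for named genes and were named because they were among these 11.

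Other genes were further apart in one library. Comp and Apoe had log2 ratios of 0.36 and 0.62 in the conventional library and larger ones in the No-Touch library, 1.72 for Comp. Apod, an apolipoprotein secreted by fibroblasts, was 753 CPM in conventional and 567 CPM in No-Touch members against 949 and 2434, ratios of -0.33 and -2.10. Serpinb2, an inhibitor of plasminogen activators, was 147 and 22.8 CPM against 223 and 174, and 10 cells held 87.4% and 65.8% of it in members. Gas6, a ligand of TAM receptors, was 875 and 1109 CPM against 473 and 488, and Id2, a target of BMP signalling, 110 and 217 CPM against 66.8 and 82.2. These genes were named on the condition that their direction was the same in both libraries.

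**Figure D4:**
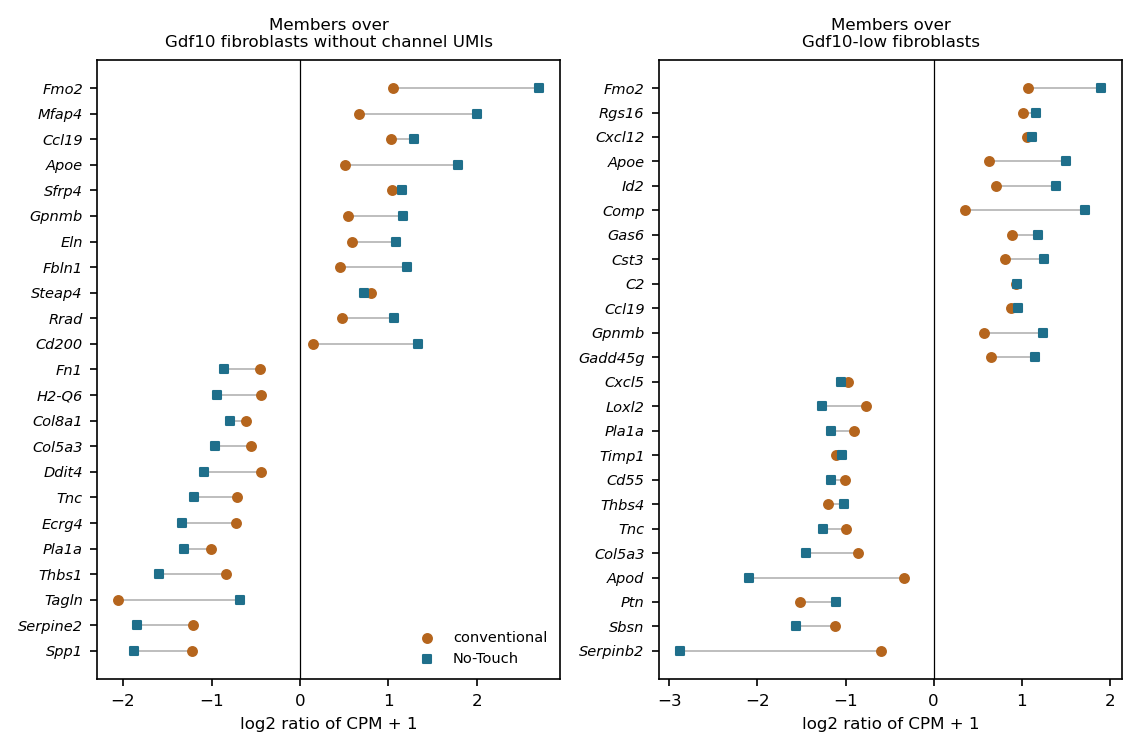
Log2 ratios of CPM + 1 (horizontal axes) of members over Gdf10 fibroblasts without channel UMIs (left) and over Gdf10-low fibroblasts (right), for genes among the 12 highest and 12 lowest by the mean of the libraries at 100 CPM or more in the higher group; 1 gene is left out on the left. Only genes with the same direction in both libraries were eligible, so each gene's points lie on the same side of 0 by choice.

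Other ligands of the family of Gdf10 were measured beside it. Of 8 measured, 0 were higher in members than in Gdf10-low fibroblasts and 3 lower by at least 1.5-fold in both libraries, the median log2 ratio being -0.38 beside -0.07 over all 8015 genes (87 of them, 1.09%, higher and 99, 1.24%, lower). The lower ones were Inhba, the activin A subunit, at 69.3 and 31.4 CPM against 147 and 94.2, Bmp2 at 5.92 and 6.89 CPM against 17.0 and 12.6, and Inhbb at 4.82 and 4.26 CPM against 10.8 and 12.4. Bmp4 stood at 15.1 and 13.3 CPM, Tgfb2 at 97.8 and 98.0, and Tgfb3 at 67.5 and 72.1 in members. Of 10 receptors 0 were apart in either direction, with a median of 0.14. Bmpr1a was 72.7 and 72.2 CPM, Bmpr2 125 and 98.3, Acvr1 35.1 and 40.1 and Tgfbr2 265 and 280 in members. Members thus held RNA of type I and type II receptors, none of them 1.5-fold apart from Gdf10-low fibroblasts in both libraries. Of 14 inhibitors 2 were higher and 0 lower: Chrdl1, a chordin-like BMP antagonist, at 28.2 and 53.8 CPM against 12.1 and 24.5, and Smad6, an intracellular inhibitor, at 10.4 and 12.9 CPM against 6.24 and 6.46. Among the SMAD genes and their targets 1 of 9 was higher, Id2, and 0 lower.

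Other lists described members against Gdf10-low fibroblasts in the same way, beside 1.09% of all genes measured higher and 1.24% lower. Of 9 perivascular and parenchymal fibroblast genes 3 were higher and 0 lower, with a median of 0.61: Cxcl12, Penk, the precursor of enkephalin, at 67.7 and 24.3 CPM against 31.2 and 11.2, and Cygb, cytoglobin, at 857 and 686 CPM against 553 and 341. Of 9 adventitial progenitor genes outside the rule 0 were higher and 2 lower, Sema3c and Cd55, with a median of -0.48. Sema3c was 29.6 and 61.0 CPM against 45.1 and 184. Of 8 Wnt inhibitors 2 were higher, Sfrp4 and Igfbp4, and of 7 Wnt ligands and targets Wnt5a was higher, at 44.7 and 48.6 CPM against 20.5 and 15.6, and Wnt2 lower. Igf1 was 546 and 650 CPM against 313 and 365. Of 10 complement genes 2 were higher, C7 and C2, and 1 lower, Cd55, with a median of 0.54. C3 stood at 6298 and 3315 CPM against 4645 and 2160 without reaching 1.5-fold in the conventional library. Of 28 mesenchymal transcription factors 2 were higher, Ebf3 and Nr2f2, and 1 lower, Meox1. Of 14 vasoactive receptors and cyclic nucleotide enzymes 2 were higher. Vipr2, a receptor of vasoactive intestinal peptide, was 25.4 and 19.0 CPM against 15.1 and 8.13, and Pde5a, which breaks down cyclic GMP, 51.2 and 61.2 CPM against 33.1 and 37.3. Ramp1 was lower.

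Pericyte and smooth muscle markers were far lower in members than in pericytes. The 9 pericyte markers outside the rule summed to 279 (269 to 289) and 233 (229 to 238) CPM in members, 311 and 205 CPM in Gdf10-low fibroblasts, and 5974 and 5338 CPM in pericytes. Pdgfrb, which fibroblasts also have, gave 160 and 126 CPM of the members' sum. Rgs5 was 27.0 and 13.1 CPM in members against 4028 and 3876 CPM in pericytes. Pericytes were chosen by their Rgs5 UMIs, so this contrast was set in part by that choice. Rgs5 also gave most of their marker sum. A UMI of Rgs5, Higd1b, Cox4i2 or Myh11 was found in 44.8% (40.5 to 49.1) and 29.6% (27.3 to 32.0) of members and in 41.3% (38.7 to 44.0) and 31.5% (29.1 to 33.98) of Gdf10-low cells. The 8 smooth muscle markers summed to 133 and 212 CPM in members, to 259 and 260 CPM in Gdf10-low fibroblasts and to 6796 and 5098 CPM in pericytes. The 11 leukocyte markers summed to 78.0 and 50.6 CPM in members, above the 58.1 and 35.1 CPM of Gdf10-low fibroblasts. The 7 blood endothelial ones outside the rule summed to 32.5 and 20.4 CPM against 31.6 and 17.0. For the 6 Schwann ones the sums were 19.2 and 22.2 CPM against 16.6 and 19.9. In all of these lists every marker outside the rule was detected in members of both libraries, except for 1 leukocyte marker in the conventional one. The 6 epithelial markers summed to 201 and 14.5 CPM, nearly all of it Pth. They summed to 207 and 14.8 CPM in Gdf10-low fibroblasts, 220 and 16.7 in pericytes and 233 and 51.3 in endothelial cells. This RNA was thus not particular to members. In cells without channel UMIs the sums were 1357 and 15.9 CPM, 1 conventional cell holding 3848 of the 4509 Pth UMIs.

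Between the libraries, members of the No-Touch library had more RNA of interferon-induced genes and less of inflammatory ones. At least 2-fold, 44 of 3013 genes of at least 50 CPM (1.46%) were higher in No-Touch members and 41 (1.36%) lower. Of 20 interferon-response genes 13 were at least 1.5-fold higher and 0 lower, the median log2 ratio being 0.79 beside 0.04 over 8356 genes (532 of them, 6.37%, higher and 275, 3.29%, lower). Iigp1, an immunity-related GTPase, was 210 CPM in conventional and 792 CPM in No-Touch members. Irgm1 was 15.6 and 91.5 CPM, Isg15, a ubiquitin-like modifier, 107 and 302, and Ifit1 39.8 and 110. Of 12 genes of the MHC class I pathway 4 were higher and 0 lower, with B2m at 1328 and 2757 CPM and H2-T23 at 121 and 287. The rule had removed the cells highest in Cxcl9 and Cxcl10 from both libraries. Gdf10-low fibroblasts had Iigp1 at 196 and 560 CPM, Isg15 at 97.2 and 285.5 CPM, and B2m at 1387 and 2836 CPM, so the same order was present in them.

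Of 25 inflammatory cytokine and NF-kB genes outside the rule 2 were higher in No-Touch members and 14 lower, with a median of -0.74. Over all genes measured 6.37% were higher and 3.29% lower. Cxcl2, a neutrophil chemokine, was 2967 CPM in conventional and 680 CPM in No-Touch members, Icam1, an adhesion molecule for leukocytes, 1961 and 682, and Lcn2, lipocalin 2, 146 and 24.2. Csf3 was 49.5 and 5.09 CPM and Cxcl13 49.6 and 7.28 CPM. Il6 went against the list, at 132 and 362 CPM, as did Ccl8 at 74.3 and 116. In Gdf10-low fibroblasts Cxcl2 was 3230 and 868 CPM and Icam1 1478 and 439 CPM. Il6 there was 91.9 and 198 CPM. Both populations showed these differences, and whether they were of unequal size was not tested.

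Clock genes and stress genes also went with the library. Nr1d1, the gene of the clock repressor REV-ERB alpha, was 30.4 CPM in conventional and 154 CPM in No-Touch members, and Dbp 5.75 and 33.8 CPM. Cry1, a clock repressor, was 31.0 and 13.5 CPM, and Per2 and Arntl were also lower. Of 14 clock genes 6 were at least 1.5-fold higher and 3 lower. Over all genes measured the shares were 6.37% and 3.29%. In the list of 20 early-response and heat shock genes 2 were higher, Zfp36 and Fos, and 5 lower, all of them heat shock genes, with Hspb1 at 1120 and 430.5 CPM. Of 9 nuclear and rRNA-derived transcripts 0 were higher and 6 lower: Neat1 was 1422 and 455 CPM and Gt(ROSA)26Sor 294 and 13.5 CPM. The hour of harvest and handling are not given in the sources used here and cannot be told apart from the graft type.

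Matrix and signalling genes of members differed between the libraries in both directions. Has1, a hyaluronan synthase, was 239 and 640 CPM, Cd34 154 and 376, and Sfrp2 1245 and 2890 CPM in conventional and No-Touch members. Among 17 matricellular genes 5 were higher, Cthrc1 at 119 and 261 CPM and Ccn3 at 127 and 264 among them, and 3 lower, including Thbs1 and Spp1. The shares over all genes measured were 6.37% higher and 3.29% lower. Spp1 rested on few cells: its log2 ratio of -1.51 was -0.78 without the highest cell of each library and turned to 0.20 when the rule was applied after thinning to 10000 UMIs. Of 3 fibrillar collagens outside the rule 2 were higher, Col5a1 at 320 and 526 CPM and Col5a3 at 158 and 243. Of 10 perivascular fibroblast genes 0 were higher and 4 lower, with a median of -0.33, Penk at 67.7 and 24.3 CPM and Hsd11b1 at 54.6 and 22.9 among them. Of 6 other BMP, GDF, activin and TGF-beta ligands 0 were higher and 3 lower (Inhba, Gdf15, Tgfb1), 0 of 10 receptors were apart, and Grem1, a BMP antagonist, was 16.2 and 2.23 CPM. Serpinb2, Col6a5, Sdc4 and Cxcl14 were also among the 12 lowest. The log2 ratio of Serpinb2, -2.64, was -0.68 in cells with at least 4 UMIs of Gdf10, -0.88 without cells with a pericyte UMI and -0.27 with the rule applied after thinning, so its 2-fold difference ended there. Has1 and Cd34 in Gdf10-low fibroblasts were 220 and 541 CPM and 211 and 504 CPM.

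**Figure D5:**
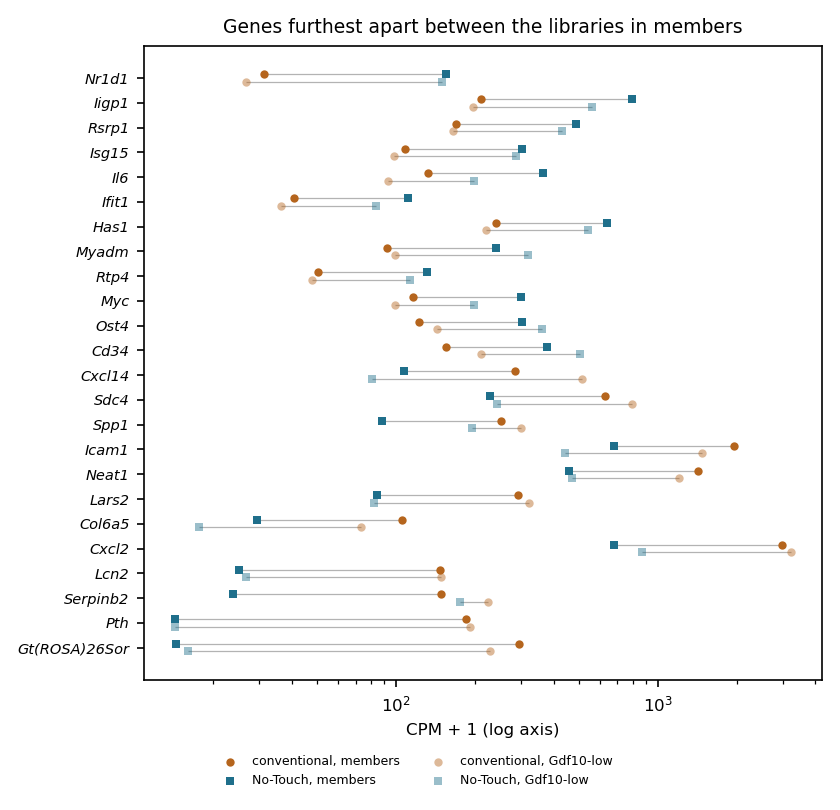
CPM + 1 (horizontal log axis) of the 12 genes most higher and the 12 most lower in No-Touch than in conventional members, by library; the paler points are Gdf10-low fibroblasts of the same library. For each of the 24 genes both populations have the same order of the libraries.

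Members also varied among themselves. The variance of each gene's UMIs over what counting error at each cell's depth gives was taken as an index, whose median over genes of at least 50 CPM was 1.71 in both libraries. Of the 100 genes of highest index in each library 74 were shared. Spp1 had the highest index, 1180 and 763. Mgp, an inhibitor of calcification, followed with 572 and 583, Sparc, a collagen-binding matricellular protein, with 182 and 236, and Eln with 262 and 138. Apod, Malat1, Ccl2, Hp, Timp1, Cxcl14, Cxcl2, Mmp3, Cst3, Gsn and Cxcl1 completed the 15 genes of highest index in both. At an equal relative spread the index is larger for a more abundant gene, so its order is not one of relative spread. The spread between cells was thus far above counting error for these genes, and the intervals given above do not cover it. The 10 highest of 545 conventional members held 45.5% of the Eln UMIs. In the No-Touch library the 10 highest of 1515 members held 14.4%. The unequal cell numbers keep these shares from being compared between the libraries. Mfap4, Fmo2 and Sfrp4 were spread more evenly, with 4.29% to 14.0% of their UMIs in the 10 highest members.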

How the data were processed

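The deposited files hold raw UMI counts per gene and barcode of filtered barcodes. They were made with Cell Ranger on mm10, version 3.1.0 per the submitters' processing notes and 6.0.0 per the file headers. No normalized values were used.

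Quality limits were 500 genes, 1000 UMIs and no more than 10% mitochondrial UMIs, and members were chosen from raw counts. No doublets were removed: Scrublet (in scanpy 1.11.5) called 2.26% and 0% of cells, so the 8% highest scores were left out as an alternative. They held 8.62% and 7.13% of members. UMIs were summed per library and population and given as CPM, with log2 ratios of CPM + 1. Intervals are exact at 95%, from scipy 1.17.1, and cover counting error, since cells of 1 library are not replicates. Genes were counted from 50 CPM, and from 10 CPM in lists. Positions are from GENCODE vM21. The code was checked on simulated counts.

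Named genes are the 12 highest and 12 lowest of at least 100 CPM per comparison, leaving out sex-linked, mitochondrial, ribosomal protein and predicted genes, up to 4 from each list at 20 CPM, and all channel, ligand-family and pericyte genes. For the 12 highest and 12 lowest against other fibroblasts, the direction also had to be the same in both libraries. Members and lists were chosen with earlier results of these data known. 1 gene that met this rule is not reported here. Bmp1, a protease, was left out of the ligand list after its values were seen.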

Additional observations from a re-analysis of the deposited data

Results flagged for a closer look

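Comp was set apart because its difference between members and Gdf10 fibroblasts without channel UMIs went opposite ways in the libraries: the log2 ratio of CPM + 1 was -0.49 for conventional cells and 0.49 for No-Touch cells. The difference between the libraries was not tested. In the cells without channel UMIs, 10 cells held 56.4% (conventional) and 68.9% (No-Touch) of the Comp UMIs.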

How the results depend on the processing

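Differences between libraries have no replicate check. No paired analysis was possible because each graft group has a single library; members and other fibroblasts were compared within each library, which gives 2 values and no test. The share of members among fibroblast-gated cells (conventional and No-Touch) was 7.98% and 16.8% with at least 4 UMIs of Gdf10, 9.96% and 20.1% with at least 2 channel UMIs, 7.66% and 11.8% after thinning to 10000 UMIs, 3.02% and 6.95% at 5000, and 8.20% and 13.0% with only the Gdf10 and channel gates thinned. The No-Touch share was the higher in all 9 alternatives. Between libraries, genes of at least 10 CPM gave 100 higher and 94 lower, and of at least 200 CPM 18 and 19. Against Gdf10 fibroblasts without channel UMIs, 28 genes were lower with at least 2 channel UMIs and 29 without cells that had a pericyte UMI (Rgs5, Higd1b, Cox4i2 or Myh11). There, 13 were higher among cells of 10000 to 40000 UMIs and 12 with a pseudocount of 10 CPM, 59 higher and 60 lower from 10 CPM, and 11 and 4 from 200 CPM. Against Gdf10-low fibroblasts, 11 were lower without the 8% highest doublet scores, 14 without cells with a pericyte UMI, and 4 with TMM scaling, with median-of-ratios scaling or with a pseudocount of 10 CPM. The counts higher and lower were 9 and 14 with at least 4 Gdf10 UMIs, 8 and 14 with at least 2 channel UMIs, 12 and 29 after thinning, and 15 and 27 from 10 CPM. There were 2 higher among cells of 10000 to 40000 UMIs and 1 lower from 200 CPM. The genes turned over: against Gdf10-low fibroblasts 1 of 4 higher and 3 of 7 lower genes remained among cells of 10000 to 40000 UMIs, and 2 and 7 after thinning. Against cells without channel UMIs 7 of 21 higher and 12 of 17 lower genes remained after thinning. Comp over cells without channel UMIs in the No-Touch library was 1.16 without cells with a pericyte UMI and 1.21 among cells of 10000 to 40000 UMIs, against 0.49. Spp1 between libraries, at -1.51, was 0.20 with gates applied after thinning. The causes were not tested. For named genes, 445 values under alternatives moved by less than 1.5-fold, 25 by more and 1, Spp1, changed sign. For ratios over other fibroblasts these values are means of the 2 libraries. Against cells without channel UMIs, both libraries kept the direction of Cd200 in 12 of 14 alternatives, and that of Rrad and Eln in 13. Serpinb2 between libraries went from -2.64 to -0.27 after thinning. Thinning only the Gdf10 and channel gates, leaving out cells that Scrublet called, cells rich in Pth, Spp1 or Acta2 and Tagln, or the highest cell of each population were chosen after seeing the data.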
